A study of Mus musculus with 8 samples.

Results

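The collagen chains are the family of genes named Col followed by a type number and a chain number. They were taken as every non-control probe on the array whose gene name has the form Col, number, a, number, which gave 43 chains on 68 of 55681 probes, among 34787 genes on the array. A probe was kept where the scanner called it well above background on both arrays of at least 1 group. This left 33 of the 43 chains among 22899 genes, and the brightest kept probe stood for its gene. The chains were divided by the structure their protein forms: 11 fibrillar chains (9 kept), 9 network chains (7 kept), 9 FACIT chains (8 kept), 6 beaded filament chains (3 kept) and 8 others (6 kept). Emid2, the older name under which the array lists collagen XXVI, does not have the family's form and was not counted.

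The cells were mature adipocytes obtained by differentiating 3T3-L1, an established mouse preadipocyte line. They were kept for 72 h with physiological saline (the control) or with asbestos fibres, either chrysotile, crocidolite or amosite, at a labelled concentration of 10 mg/cm2. That unit is the labels' own and was not checked against another source. Chrysotile is a serpentine asbestos, and crocidolite and amosite are amphiboles. The groups differed by the fibre alone as far as the labels say, and each had 2 one-colour arrays, 8 in all. Nothing in the labels says that the 2 arrays of a group are separate cultures. The p-values below therefore speak of array-to-array spread, which could be technical.

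A collagen is built of 3 chains that wind into a triple helix, in which glycine returns at a fixed step along each chain because no larger residue can sit at the centre. Fibrillar collagens pack into the cables that bear tension, network collagens such as type IV form the sheet of the basement membrane that wraps each adipocyte, and FACITs (fibril-associated collagens with interrupted helices) sit on fibril surfaces without forming fibrils themselves. Type VI forms beaded filaments around adipocytes and is abundant in fat. Preadipocytes make much fibrillar collagen, and basement membrane chains gain ground as they mature.

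The repeat can be read directly on 5 probes that lay in the coding part of a chain. They are shown because they are the collagen probes with signal whose letters hold the glycine repeat, the feature that defines the family. Each is printed as the array file gives it, 5′ to 3′ in the sense of the transcript, with the glycine codons (GGN) of the open frame in capitals.
Col15a1, mm9 chr4:47283786-47283845, plus strand: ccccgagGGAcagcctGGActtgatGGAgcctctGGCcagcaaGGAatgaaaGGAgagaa
Col25a1, mm9 chr3:130270497-130270556, plus strand: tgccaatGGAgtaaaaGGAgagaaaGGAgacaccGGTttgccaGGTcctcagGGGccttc
Col16a1, mm9 chr4:129756457-129756516, plus strand: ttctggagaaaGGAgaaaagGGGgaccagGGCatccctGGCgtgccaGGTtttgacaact
Col14a1, mm9 chr15:55347733-55347792, plus strand: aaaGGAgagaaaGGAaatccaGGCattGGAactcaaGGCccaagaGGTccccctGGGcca
Col4a4, mm9 chr1:82515563-82515622, minus strand: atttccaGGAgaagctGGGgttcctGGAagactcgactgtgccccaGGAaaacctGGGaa

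In the Col15a1 and Col25a1 probes 6 glycine codons followed each other at steps of 3 codons, and in the Col16a1 probe 5 did. The Col14a1 probe held 7 glycine codons, of whose 6 steps 5 were of 3 codons and the other was of 2 codons. The Col4a4 probe had 1 step of 7 codons between its 3 first and its last glycine codons, a break in the repeat of the kind type IV chains are known for. A run of at least 3 such codons in a frame with no stop occurred in 259 of all 55681 probes (0.465%) and in 6 of the 68 collagen probes (8.82%). Beside the 5 printed, the collagen probe with a run of at least 3 was for Col13a1, and it was above background on 0 of the 8 arrays. A run of at least 5 occurred in 15 probes (0.0269%), 3 of them collagen probes (4.41% of these). The Col14a1, Col15a1 and Col25a1 probes are the ones used for their genes below, and the Col16a1 and Col4a4 probes gave way to brighter probes of the same gene.

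The arrays' 75th percentiles of processed intensity lay between 394 and 523.4. Both saline arrays (441.6 and 394) were below every fibre array (453.2 to 523.4). The scanner called 31291 to 34978 probes per array (56.2% to 62.8%) well above background. Levels are given below as log2 of the processed intensity minus the array's own 75th percentile, so that 0 is the 75th percentile of that array. They are set only against the same probe on other arrays, since probes differ in how strongly they bind. The 12 adipocyte markers looked for (Adipoq, Fabp4 and Plin1 among them) were all kept on the filter, and their summed level ran from 3140 to 3950 times the 75th percentile in saline and from 3160 to 3380 in the 3 fibre groups. Of 8 macrophage markers 6 were kept (not Adgre1 and Lyz2), with median differences from saline of 0.30, 0.22 and 0.03 with chrysotile, crocidolite and amosite. The medians include Ptprc, kept through amosite alone, the group where it was highest. It was above background on 0 saline arrays, 1 array each with chrysotile and crocidolite and 2 with amosite. Those above saline numbered 4, 4 and 3 of the 6. Cd68 differed by 0.59 ± 0.17 with chrysotile and Cd14 by 0.95 ± 0.30 with crocidolite (unadjusted p = 0.0127 and 0.0178, adjusted p = 0.89 and 0.596 by limma and Benjamini-Hochberg). Csf1r went the other way, at -0.45, -0.38 and -0.45 (SE 0.19), with both arrays of each fibre below saline. Of 5 endothelial markers Pecam1 and Kdr were kept (not Cdh5, Tek and Emcn), with medians of -0.14, -0.20 and -0.08. The part of these markers in the results below was not tested. Arrays of 1 slide and 1 scan time held all groups. Position on the slide matched the replicate number in 1 direction and the group in the other, so group and position in that direction cannot be told apart.

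No chain passed the test after adjustment over all genes. With limma and Benjamini-Hochberg adjustment, 0 of the 33 chains had an adjusted p under 0.05 in any of the 3 comparisons with saline, the 3 comparisons between fibres or the F test over the 4 groups. The same held for the 22899 genes, of which 0% were called in each. At an unadjusted p under 0.05, 3 chains stood apart from saline with chrysotile, 2 with crocidolite and 0 with amosite, against 5.54%, 7.43% and 2.61% of all genes. Those chains are 9.09%, 6.06% and 0% of the 33, shares too near those of all genes to say anything about the chains as a family. With the replicate number as a block, these counts were 5, 6 and 0 chains, against 10.8%, 13.8% and 4.41% of all genes, and the adjusted count was again 0.

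Counting arrays without a test gave a like picture. With chrysotile 1 chain was higher than saline on both arrays with no overlap and 5 were lower, against 13.6% and 16.4% of all genes. With crocidolite 4 were higher and 5 lower, against 13.4% and 21.4% of all genes, and with amosite 3 were higher and 3 lower, against 9.11% and 11.8%. The 4 include Col28a1, kept through crocidolite alone. The 3 higher with amosite include Col19a1, kept through crocidolite and amosite. The places of Col28a1 and Col19a1 in these counts support no direction. As shares of the 33 chains, the higher ones were 3.03%, 12.1% and 9.09% and the lower ones 15.2%, 15.2% and 9.09%. The 3 comparisons share the saline arrays and are not independent of each other.

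**Figure D1:**
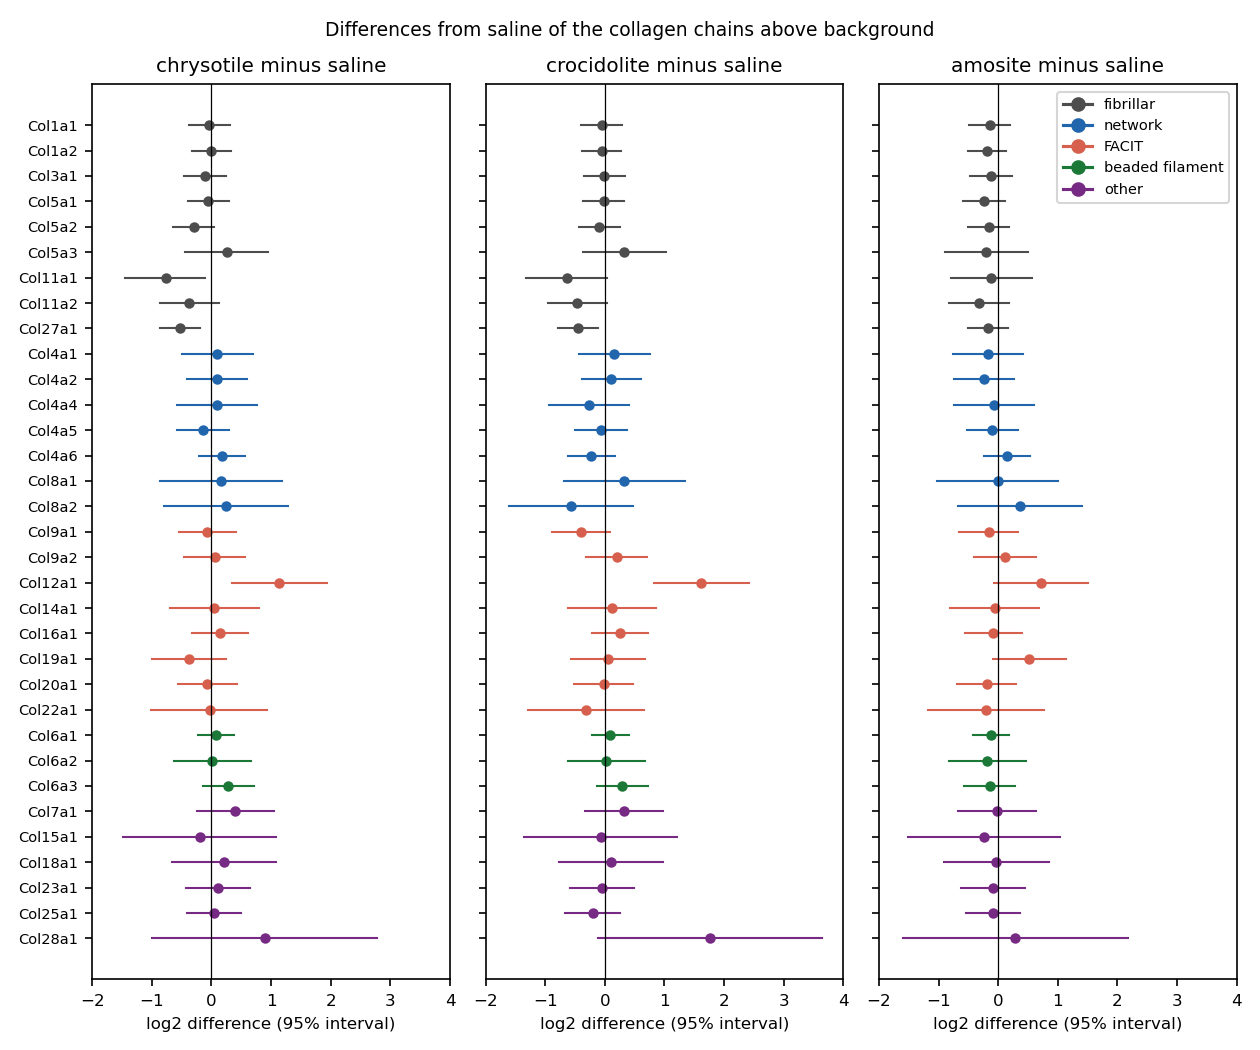
Log2 difference from saline of the 33 kept chains (rows, coloured by class) for each fibre, with limma's 95% interval (2 arrays per group, spread shared over 8 arrays). Most points lie within 0.5 of 0. Col12a1 stands to the right in all 3 panels, at 1.14, 1.62 and 0.72, and Col28a1 has the widest interval.

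The fibrillar chains that make the bulk of tissue collagen stood at nearly the same level in all 4 groups. Col1a1, which with Col1a2 forms type I collagen, was at 7.41 and 7.63 in saline, 7.43 and 7.54 with chrysotile, 7.38 and 7.54 with crocidolite and 7.26 and 7.48 with amosite. The groups overlapped, and replicate 2 was the higher array in each. The difference from saline was -0.04 ± 0.14 (SE; 95% interval -0.38 to 0.31) with chrysotile, -0.05 ± 0.14 (-0.40 to 0.29) with crocidolite and -0.14 ± 0.14 (-0.49 to 0.20) with amosite. On a linear scale these intervals reach at most 1.24-fold higher and go down to 0.711 of the saline level.

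Col1a2, its partner chain, differed by 0.00, -0.05 and -0.19 with chrysotile, crocidolite and amosite, and each group overlapped saline. Col3a1, the chain of type III collagen that is laid down with type I in soft tissue, was at 7.86 and 8.14 in saline, 7.79 and 7.99 with chrysotile, 7.93 and 8.05 with crocidolite and 7.88 on both amosite arrays. Its differences were -0.11, -0.01 and -0.12 (SE 0.14 each), and the fibre arrays lay within or just below the saline range. For Col1a1 with chrysotile and crocidolite, and Col3a1 with any fibre, the sign turned when single arrays were left out.

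Type V chains, which start fibrils and set their width, moved little. Col5a1 differed by -0.05, -0.02 and -0.24 (SE 0.14), Col5a2 by -0.30, -0.10 and -0.16 (SE 0.14), and Col5a3 by 0.26, 0.33 and -0.20 (SE 0.29). Col5a2 was lower than saline on both chrysotile arrays (1.01 and 1.20 against 1.29 and 1.51), and Col5a1 on both amosite arrays (4.61 and 4.46 against 4.92 and 4.62). With the replicate block, the unadjusted p of Col5a2 with chrysotile went from 0.081 to 0.0151, and its adjusted p was 0.437 (limma, Benjamini-Hochberg).

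The minor fibrillar chains held the lowest differences of the class. Col27a1, a fibrillar chain known from cartilage, was at -0.31 and -0.22 in saline, -0.77 and -0.81 with chrysotile, -0.76 and -0.66 with crocidolite and -0.58 and -0.29 with amosite. All 4 chrysotile and crocidolite arrays lay below both saline arrays, while amosite overlapped saline. The differences were -0.53 ± 0.14 (95% interval -0.86 to -0.20) with chrysotile, -0.45 ± 0.14 (-0.78 to -0.12) with crocidolite and -0.17 ± 0.14 with amosite. Limma's unadjusted p was 0.00745, 0.0159 and 0.251, and the adjusted p over all genes was 0.87, 0.591 and 1. Its difference kept its sign under each of the 18 settings run, from -0.58 to -0.48 with chrysotile and from -0.49 to -0.40 with crocidolite. Its single kept probe lies at mm9 chr4:62995485-62995544, and whether that is exon or UTR was not looked up.

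Col11a1, which forms type XI and mixed type V and XI fibrils, was at 1.65 and 1.51 in saline, 1.24 and 0.38 with chrysotile, 1.08 and 0.80 with crocidolite and 1.48 and 1.45 with amosite. All fibre arrays were below both saline arrays, by the least with amosite. The difference was -0.77 ± 0.28 with chrysotile (unadjusted p = 0.0313, adjusted p = 0.89), -0.64 ± 0.28 with crocidolite (0.0606 and 0.676) and -0.12 ± 0.28 with amosite (0.69 and 1). The chrysotile value rests much on replicate 2: without that array it was -0.34, and without chrysotile replicate 1 it was -1.20. Col11a2, the second type XI chain, differed by -0.37, -0.46 and -0.32 (SE 0.21 each), with both chrysotile and both crocidolite arrays below saline.

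As a class, 7 of the 9 kept fibrillar chains lay below saline with chrysotile, 8 with crocidolite and 9 with amosite. The class median was -0.11, -0.05 and -0.17, where the median of all genes was -0.01, -0.03 and -0.01 and 12060, 12772 and 11964 of the 22899 genes lay below saline. The fibrillar median was negative in both replicate pairs of each fibre (-0.10 and -0.14, -0.10 and -0.08, and -0.17 in both) and under all settings run. It moved to -0.25 with chrysotile, -0.16 with crocidolite and -0.25 with amosite without saline replicate 1, and to -0.21 with chrysotile without chrysotile replicate 2. With crocidolite it was -0.14 without saline replicate 2, -0.13 without crocidolite replicate 2 and -0.08 without crocidolite replicate 1, and with amosite -0.11 without amosite replicate 1. With quantile normalization it was -0.23 with chrysotile and -0.11 with crocidolite. The shift is a description with no test. Of the 12 adipocyte markers 11, 9 and 11 also lay below saline, with medians of -0.14, -0.14 and -0.06. The 11 preadipocyte and fibroblast markers, all kept, had medians of 0.06, 0.11 and -0.03, and their summed level overlapped between groups (314 to 403 in saline, 280 to 461 in the fibre groups). The part of either marker list in the fibrillar values was not tested. In RNA from a whole culture, fewer cells of a type and less RNA per cell cannot be told apart.

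**Figure D2:**
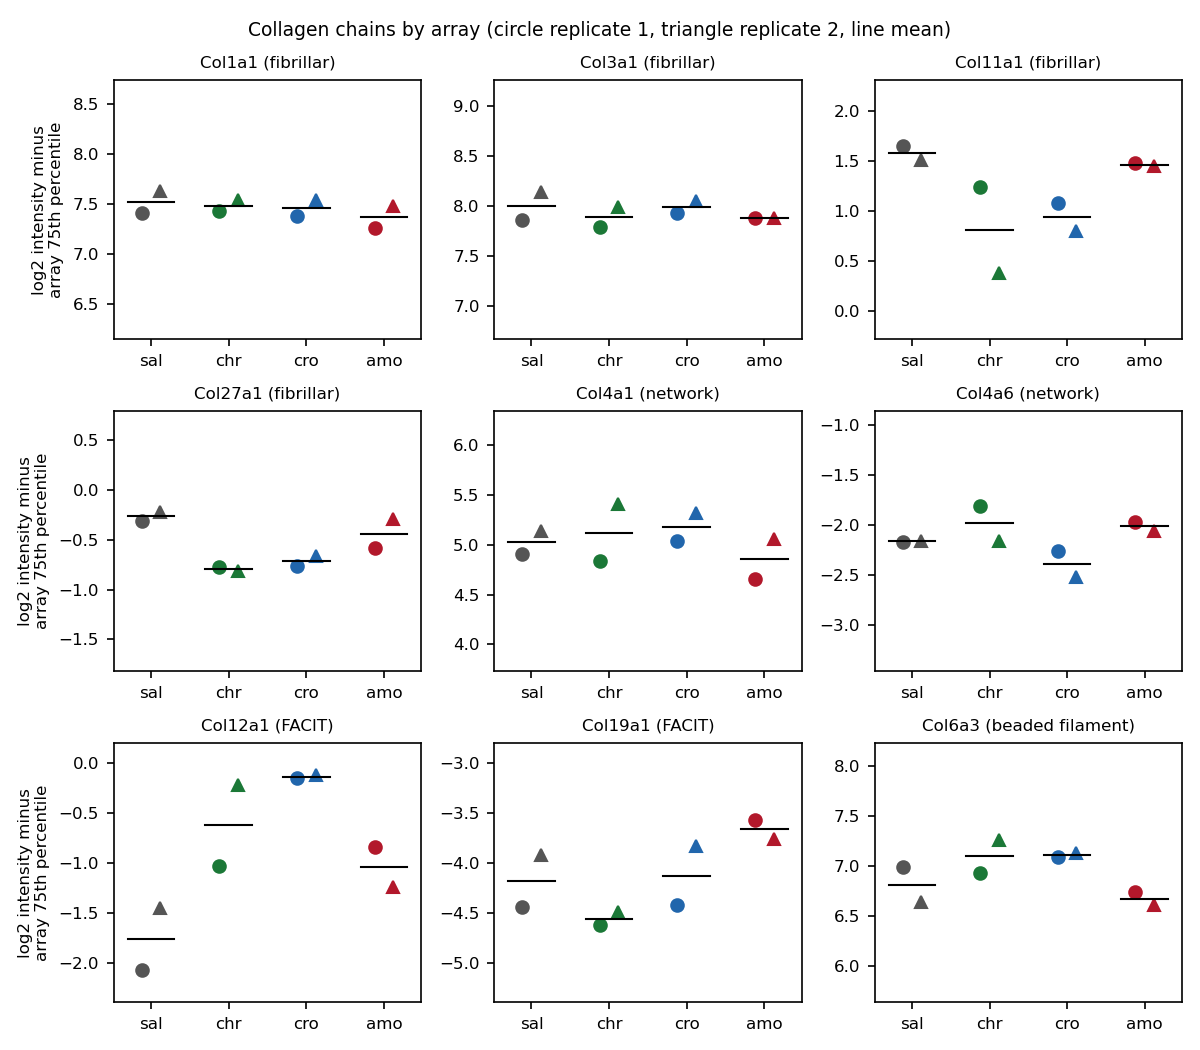
Level of the 9 chains described array by array, as log2 intensity minus the array's 75th percentile (y axis, same span of 2.6 in each panel), for saline (sal), chrysotile (chr), crocidolite (cro) and amosite (amo). Col12a1 has all 6 fibre arrays above both saline arrays. Col11a1 has all 6 below, and Col1a1 overlaps in every group.

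Among network chains the basement membrane pair stayed within the spread of its arrays. Col4a1 was at 4.91 and 5.14 in saline, 4.84 and 5.41 with chrysotile, 5.04 and 5.32 with crocidolite and 4.66 and 5.06 with amosite. Replicate 2 was again the higher array in each group, and all groups overlapped saline. Its differences were 0.10, 0.15 and -0.17 (SE 0.24). Its probe is printed 10 times on each array, and the SD between those spots was 0.05 to 0.09, well under the gap between replicates. Col4a2, the other chain of the common type IV trimer, differed by 0.09, 0.11 and -0.24 (SE 0.21), close to Col4a1 for each fibre.

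The less common type IV chains showed no common direction. Col4a5 differed by -0.14, -0.06 and -0.10 (SE 0.18) and Col4a4 by 0.10, -0.27 and -0.07 (SE 0.28). Col4a6, which pairs with Col4a5 in some basement membranes, was at -2.17 and -2.16 in saline, -1.81 and -2.16 with chrysotile, -2.26 and -2.52 with crocidolite and -1.97 and -2.06 with amosite. Both crocidolite arrays were the lowest of the 8. Chrysotile exceeded crocidolite by 0.41 ± 0.16 (unadjusted p = 0.0451, adjusted p = 1 by limma and Benjamini-Hochberg). Col4a3 was not kept.

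Type VIII chains, short-chain network collagens of vessels and the cornea, were noisy. Col8a1 differed by 0.16, 0.33 and 0.00 (SE 0.42), and Col8a2, above background on both arrays in the chrysotile and amosite groups and on 1 array in saline and in crocidolite, by 0.25, -0.57 and 0.36 (SE 0.43). Col8a2 was thus kept through chrysotile and amosite, the groups where it was higher, so its differences support no direction. With the block, which takes out the common gap between replicates, the unadjusted p of Col8a1 with crocidolite went from 0.461 to 0.0208 (adjusted p = 0.315). Col10a1, the collagen of growth-plate cartilage, was above background on 1 array and not kept. The network class had 6, 3 and 2 of 7 chains above saline with chrysotile, crocidolite and amosite, and medians of 0.10, -0.06 and -0.07. Col8a2 is included in these counts and medians. The sign of these medians was not stable. The chrysotile median was -0.14 without chrysotile replicate 2. The crocidolite median was 0.12 with normexp background correction, -0.20 with no filter on dim probes and from -0.22 to 0.02 when single arrays were left out, and the amosite median then ran from -0.09 to 0.03.

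Col12a1 had the lowest unadjusted p of the family. It encodes the FACIT of type XII, which coats type I fibrils in tissues under load. It was at -2.07 and -1.45 in saline, -1.03 and -0.22 with chrysotile, -0.15 and -0.12 with crocidolite and -0.84 and -1.24 with amosite. Each of the 6 fibre arrays lay above both saline arrays, and the crocidolite arrays were the highest of the 8.

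The Col12a1 difference was 1.62 ± 0.33 with crocidolite, a 3.08-fold higher level (95% interval 1.78 to 5.35). With chrysotile it was 1.14 ± 0.33, or 2.20-fold (1.27 to 3.81), and with amosite 0.72 ± 0.33, or 1.65-fold (0.949 to 2.85). Limma's unadjusted p was 0.00229, 0.0124 and 0.0688 in that order, and after Benjamini-Hochberg adjustment p was 0.481, 0.89 and 1, so none passed. The F test over the 4 groups gave an unadjusted p of 0.0117 for Col12a1 and 0.0243 for Col27a1, the 2 chains under 0.05 there, where 4.99% of all genes were. Adjusted, these were 0.929 and 0.949.

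The sign of the Col12a1 difference was the same under all 18 settings. When single arrays were left out it ran from 1.32 to 1.93 with crocidolite, from 0.73 to 1.55 with chrysotile and from 0.41 to 1.03 with amosite. The kept probe lies at mm9 chr9:79446895-79446954 on the minus strand. A second Col12a1 probe on the array was above background on 0 arrays, so the difference rests on 1 probe.

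Most of the kept myofibroblast markers also lay higher with chrysotile and crocidolite than with amosite. The median difference of the 5 kept of 6 markers was 0.72 with chrysotile, 0.70 with crocidolite and 0.21 with amosite. Their summed level ran from 13.6 to 21.4 times the 75th percentile in saline, 22.1 to 30.5 with chrysotile, 24.2 to 41 with crocidolite and 14.4 to 26.4 with amosite. Acta2, smooth muscle actin, differed by 0.74 ± 0.54, 1.16 ± 0.54 and 0.30 ± 0.54, and Lrrc15 was not kept. Cnn1, calponin, did not share this order, at 0.03, -0.03 and 0.25 (SE 0.34). It was above background on both arrays in amosite alone and was kept through that group, where its mean was highest. Its differences thus support no direction, and the medians and summed levels above include it. At an unadjusted p under 0.05, 0 of the 5 markers differed from saline with any fibre. With the replicate block 3, 4 and 0 did, against 10.8%, 13.8% and 4.41% of all genes, and 0 of the markers passed after adjustment. The part of these markers in the Col12a1 result was not tested.

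The other FACITs had smaller differences than Col12a1. Col14a1, which also binds type I fibrils and is read by a helix probe printed above, was at -0.73 and -1.19 in saline, -0.66 and -1.17 with chrysotile, -0.65 and -1.04 with crocidolite and -0.70 and -1.34 with amosite. Replicate 1 was the higher array in all groups, by more than any group differed from another. Its differences were 0.05, 0.12 and -0.06 (SE 0.31).

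Col16a1 differed by 0.14, 0.26 and -0.08 (SE 0.20), and its helix probe printed above gave -0.36, 0.06 and 0.01. These 2 probes thus had opposite signs with chrysotile and with amosite. Another kept Col16a1 probe gave 0.29, 0.52 and 0.09. Col9a1 and Col9a2, cartilage chains, differed by -0.07, -0.40 and -0.16 (SE 0.20) and by 0.06, 0.20 and 0.11 (SE 0.21), and Col20a1 by -0.07, -0.02 and -0.19 (SE 0.20). Both crocidolite arrays of Col9a1 lay below saline. Col22a1, known from tissue junctions, differed by -0.03, -0.31 and -0.20 (SE 0.40) near background. It was kept through saline and amosite, and its mean was highest in saline, so its differences support no direction.

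Col19a1, a rare FACIT of basement membrane zones, was near the detection limit. It was at -4.44 and -3.92 in saline, -4.62 and -4.49 with chrysotile, -4.42 and -3.83 with crocidolite and -3.57 and -3.76 with amosite. Both amosite arrays lay above saline and both chrysotile arrays below it, by 0.52 and -0.37 in the mean. It was well above background on 1 of 2 arrays in saline and in chrysotile and on both in the other groups. Chrysotile was lower than amosite by -0.89 ± 0.25 (unadjusted p = 0.0115, adjusted p = 1 by limma and Benjamini-Hochberg), with no overlap. Col19a1 was kept through crocidolite and amosite, the groups where it was higher. Its differences of those groups from saline and chrysotile thus support no direction. With normexp background correction its amosite difference from saline went from 0.52 to -0.01. The FACIT class as a whole had 4, 5 and 3 of 8 chains above saline and medians of 0.01, 0.09 and -0.07, and the amosite median was -0.26 without amosite replicate 1. Col19a1 and Col22a1 are included in these counts and medians.

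**Figure D3:**
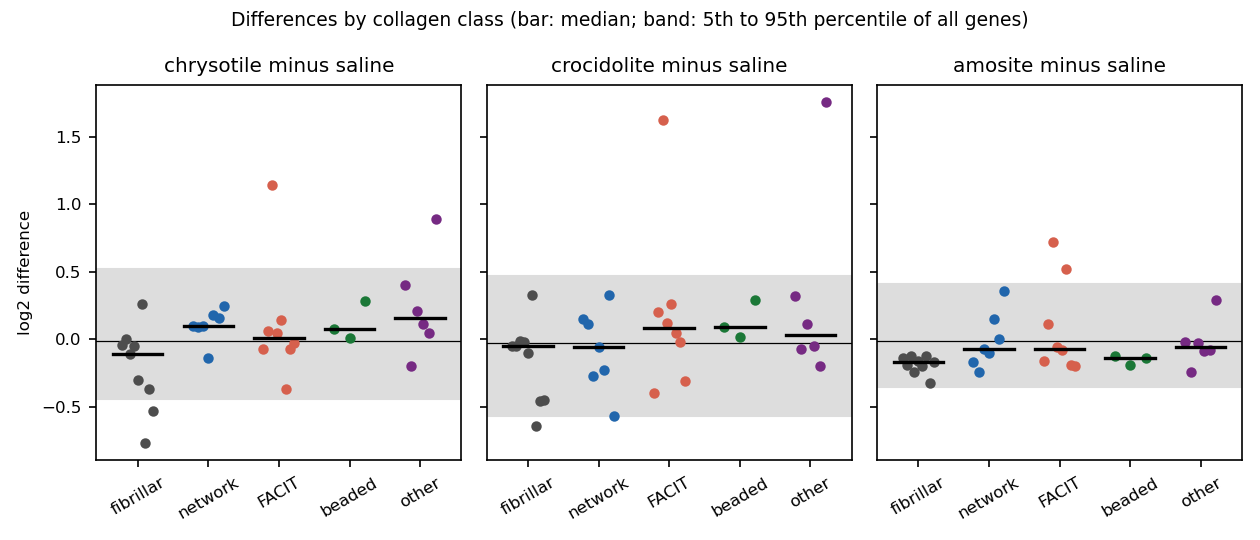
Log2 difference from saline (y axis) of the kept chains by class for each fibre. Thick bars are class medians, the thin line is the median of all 22899 genes and the grey band spans their 5th to 95th percentile (-0.44 to 0.52, -0.57 to 0.47 and -0.35 to 0.41). Most chains fall within the band. Fibrillar medians lie below the line, and Col12a1 is the high FACIT point in each panel.

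Type VI chains, the beaded filaments around fat cells, differed by small amounts. Col6a1 differed by 0.08, 0.09 and -0.12 (SE 0.12) and Col6a2 by 0.01, 0.02 and -0.19 (SE 0.27). Col6a3, whose cleaved end is the adipose signal endotrophin, was at 6.99 and 6.64 in saline, 6.93 and 7.26 with chrysotile, 7.09 and 7.13 with crocidolite and 6.74 and 6.61 with amosite. Crocidolite lay above saline and amosite on both arrays, and chrysotile overlapped saline.

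Col6a3 with crocidolite exceeded amosite by 0.44 ± 0.18 (unadjusted p = 0.0462, adjusted p = 0.934 by limma and Benjamini-Hochberg). Against saline it differed by 0.28, 0.29 and -0.14 (SE 0.18). The 3 kept chains lay above saline with chrysotile and with crocidolite and below it with amosite. Col6a4, Col6a5 and Col6a6, which can replace Col6a3, were not kept.

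Of the remaining chains, Col7a1, the anchoring fibril of skin, was at 0.21 and 0.67 in saline, 0.59 and 1.09 with chrysotile, 0.56 and 0.96 with crocidolite and 0.23 and 0.61 with amosite. Within each replicate number, chrysotile and crocidolite lay above saline, although the groups overlapped when both numbers were pooled. The differences were 0.40, 0.32 and -0.02 (SE 0.27), with an unadjusted p of 0.185 and 0.271 for the former, and 0.0052 and 0.0123 with the block. The blocked adjusted p was 0.432 and 0.298 (limma, Benjamini-Hochberg).

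Col15a1 and Col18a1, basement membrane collagens whose ends are cut to restin and endostatin, differed by -0.20, -0.07 and -0.24 (SE 0.53) and by 0.21, 0.11 and -0.03 (SE 0.36). The Col15a1 helix probe printed above had a wide gap between replicates, from -0.01 to -1.28 in saline. The membrane-spanning Col23a1 and Col25a1 differed by 0.11, -0.05 and -0.09 (SE 0.22) and by 0.05, -0.20 and -0.08 (SE 0.19). Col28a1 was kept through crocidolite alone, where both arrays were above background (-3.30 and -2.93). In each other group 1 of the 2 arrays was, and the saline arrays lay far apart at -4.06 and -5.70. Its differences were 0.89, 1.76 and 0.29 with an SE of 0.78. Since a chain kept through its high group had to differ there, they support no direction.

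The 10 chains not kept were Col2a1 and Col24a1 (fibrillar), Col4a3 and Col10a1 (network), Col9a3 (FACIT), Col6a4, Col6a5 and Col6a6 (beaded filament), and the membrane-spanning Col13a1 and Col17a1. The best probe was above background on 2 of 8 arrays for Col6a4, on 1 for Col10a1 and on 0 for the other 8. For 25 chains the array has 1 probe. Of the 7 chains with several kept probes, 6 had probes that differed in sign in at least 1 of the 3 comparisons with saline (Col4a4, Col15a1, Col16a1, Col18a1, Col20a1 and Col23a1). Col6a2 was the chain whose probes had 1 sign in each.

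Between fibres, 1 chain had an unadjusted p under 0.05 for chrysotile against crocidolite (Col4a6), 2 for chrysotile against amosite (Col19a1 and Col27a1) and 2 for crocidolite against amosite (Col12a1 and Col6a3). Over all genes these shares were 2.79%, 4.3% and 5.31%. Col19a1 was kept through crocidolite and amosite, where it was higher, so its place in this count supports no direction. With the replicate block the counts were 2, 5 and 8 chains, against 4.59%, 8.54% and 10.1% of all genes, with 0 called after adjustment. The 2 and the 8 include Col8a2, kept through chrysotile and amosite, and the 5 include Col19a1. The places of Col8a2 and Col19a1 there support no direction. Col12a1 was higher with crocidolite than with amosite by 0.91 ± 0.33 (unadjusted p = 0.0312, adjusted p = 0.89), and Col27a1 lower with chrysotile than with amosite by -0.36 ± 0.14 (unadjusted p = 0.0376, adjusted p = 1), by limma with Benjamini-Hochberg adjustment. Over the 33 chains the median difference from amosite was 0.16 for chrysotile and 0.13 for crocidolite, with 25 and 23 chains above amosite. Over all genes these medians were -0.01 and -0.03, with 11146 and 10119 of the 22899 genes above amosite. Both comparisons use the same amosite arrays and are not independent of each other. With amosite 27 of the 33 chains lay below saline, against 11964 of the 22899 genes.

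Genes that make, bind or sense collagen were looked at in 5 lists of 79 genes, of which 72 were kept. None had an adjusted p under 0.05. The list for modification and folding holds the hydroxylases, glycosyltransferases and chaperones that work on new chains in the endoplasmic reticulum. Its 17 kept genes had medians of 0.11, 0.19 and -0.03 with chrysotile, crocidolite and amosite, with 14, 16 and 6 above saline. Of these genes 0 had an unadjusted p under 0.05 in either direction. With the replicate block 1, 2 and 0 did, against 10.8%, 13.8% and 4.41% of all genes. P4hb, a subunit of prolyl hydroxylase, differed by 0.30, 0.32 and -0.06 (SE 0.14), Plod2, a lysyl hydroxylase, by 0.28, 0.40 and -0.14 (SE 0.19), and Serpinh1, the collagen chaperone HSP47, by 0.10, 0.24 and -0.07 (SE 0.12).

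In the list for processing and cross-linking (12 of 14 kept) 1 gene was higher and 0 were lower at an unadjusted p under 0.05 with chrysotile and with crocidolite, and 0 with amosite. Over all genes 2.69%, 2.62% and 1.2% were higher at that p with the 3 fibres. With the replicate block 1, 4 and 0 genes of the list had a p under 0.05 in either direction, against 10.8%, 13.8% and 4.41% of all genes. The gene that was higher without the block was Loxl4, a lysyl oxidase that cross-links fibrils. Loxl4 was at -2.05 and -2.40 in saline, -1.43 and -1.54 with chrysotile, -1.41 and -1.28 with crocidolite and -1.95 and -2.12 with amosite. The chrysotile and crocidolite arrays lay above both saline arrays. The differences were 0.74 ± 0.16 and 0.88 ± 0.16 (unadjusted p = 0.00306 and 0.00124, adjusted p = 0.87 and 0.481 by limma and Benjamini-Hochberg) and 0.19 ± 0.16 with amosite. Lox itself differed by 0.04, 0.20 and 0.15 (SE 0.27).

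Fibril-binding proteins (18 of 19 kept) had medians of 0.00, -0.01 and -0.03. At an unadjusted p under 0.05, 4 were lower with chrysotile, 1 with crocidolite and 0 with amosite, against 2.84%, 4.81% and 1.41% of all genes, and 0 were higher. With the replicate block 7, 6 and 0 of the list had a p under 0.05 in either direction, against 10.8%, 13.8% and 4.41% of all genes. Those lower without the block were the matrix protein periostin (Postn; -0.46 and -0.62, SE 0.17), and with chrysotile also Abi3bp (-0.64 ± 0.18) and the small leucine-rich proteoglycans Lum (-0.41 ± 0.17) and Ogn (-0.88 ± 0.36). Postn had an adjusted p of 0.89 and 0.57 (limma, Benjamini-Hochberg), and Dcn, decorin, differed by 0.23, 0.18 and 0.21 (SE 0.20).

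Basement membrane partners (14 of 15 kept) had medians of -0.10, -0.09 and -0.12. With the replicate block 2, 3 and 0 had an unadjusted p under 0.05, against 10.8%, 13.8% and 4.41% of all genes. Lama2, a laminin alpha chain, was at 0.22 and 0.74 in saline, -0.08 and 0.07 with chrysotile, -0.57 and 0.11 with crocidolite and -0.01 and 0.61 with amosite. The chrysotile and crocidolite arrays lay below both saline arrays, and amosite overlapped saline. Its differences were -0.48, -0.71 and -0.18 (SE 0.32). Lamc1, the common laminin gamma chain, differed by 0.13, 0.24 and -0.20 (SE 0.14), and Nid1, which links laminin to type IV collagen, by -0.04, -0.05 and -0.05 (SE 0.12).

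Among receptors and uptake genes (11 of 12 kept; medians 0.02, 0.08 and -0.04), Cd44, a matrix receptor, was higher with chrysotile by 0.46 ± 0.15 (unadjusted p = 0.0206, adjusted p = 0.89 by limma and Benjamini-Hochberg). Gp6, the platelet collagen receptor, was kept through saline alone, the group where it was high. It was above background on both saline arrays, on 1 array each with chrysotile and crocidolite and on 0 with amosite, so no difference is given for it. With the replicate block 3, 3 and 2 genes of the list had an unadjusted p under 0.05, against 10.8%, 13.8% and 4.41% of all genes. The list behind these counts and the medians above includes Gp6, so they support no direction for the list. Ddr2, the receptor that senses fibrillar collagen, differed by 0.00, 0.03 and -0.04 (SE 0.13), and Itgb1, the beta chain of the collagen integrins, by 0.19, 0.30 and 0.02 (SE 0.14).

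**Figure D4:**
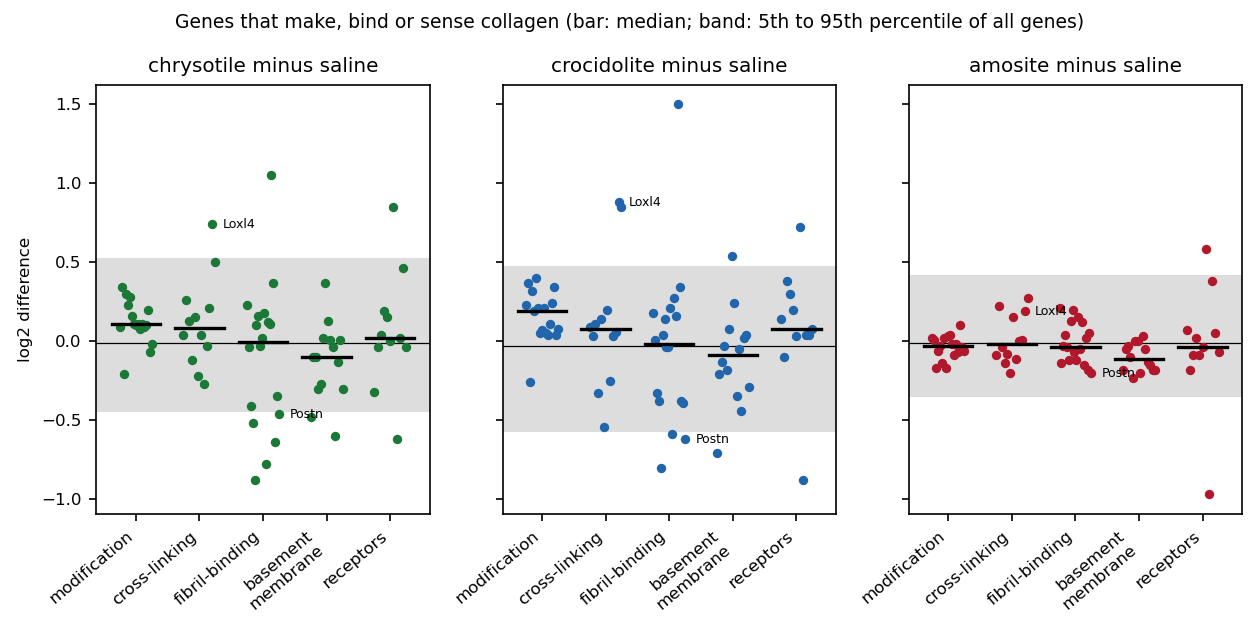
Log2 difference from saline (y axis) of the kept genes of 5 lists that make, bind or sense collagen, for each fibre. The receptors include Gp6, kept through saline alone. Thick bars are list medians, the thin line the median of all genes and the grey band their 5th to 95th percentile. Loxl4 (0.74 and 0.88) lies above the band with chrysotile and crocidolite and within it with amosite, and Postn is below it with both (-0.46 and -0.62).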

How the data were processed

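Cy3-labelled total RNA was read on one-colour Agilent mouse arrays. The deposited intensity is the scanner software's processed signal per spot, made with Feature Extraction 10.7.1.1 per the file headers (10.7 per the submitters' processing notes), on mm9 coordinates. The authors' deposited value table gave the same intensity (largest difference 0), unscaled between arrays. The background flag per spot is also as deposited by the authors.

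Control and outlier spots (99 to 183 per array) were left out, log2 intensity was centred on each array's 75th percentile, spots of a probe were averaged, and the brightest kept probe stood for a gene. Gene symbols are the array's, updated by accession where the RefSeq table allowed. A single limma fit of 4 groups (lmFit and eBayes; 4 residual and 2.21 prior degrees of freedom) gave 6 comparisons and an F test, two-sided, with Benjamini-Hochberg adjustment over 22899 genes at 0.05. The number of arrays limits the precision. Software was R 4.3.3, limma 3.58.1 and version 1.17.8 of the data.table package. The limma fit, and not the steps before it, was tested on simulated data.

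Same-numbered arrays deviated together in each of the 6 pairs of groups (correlation of deviations 0.25 to 0.46). The labels state no pairing across groups, and the number also matched position on the slide. A fit with the number as a block was therefore run only as an alternative. Others were background correction, scaling, filter, probe choice, prior, the compared groups alone, and leaving out each array. Members and lists were chosen with earlier results of these data known. Array values are given for the 4 chains that mark the family and for chains with an unadjusted p under 0.05 in any comparison. Array values of Col14a1, Col5a1, Col5a2, Col7a1, Col15a1, Col28a1 and Lama2, and differences of Cd68, Cd14, Csf1r and Cnn1, were added after they were seen. A gene of the lists is not reported here.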

Additional observations from a re-analysis of the deposited data

How the results depend on the processing

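Under the 18 alternatives run, 0 chains had an adjusted p under 0.05 in each of the 6 comparisons, the replicate block included. The block moved the unadjusted counts to 5, 6, 0, 2, 5 and 8 chains (chrysotile, crocidolite and amosite against saline, then chrysotile against crocidolite, chrysotile against amosite and crocidolite against amosite), and raised those of all genes likewise, to 2471, 3154, 1010, 1050, 1955 and 2304 of 22899. It called 0 of the partner genes after adjustment. Over all settings the unadjusted counts ran from 1 to 5, 1 to 6, 0 to 4, 0 to 3, 1 to 6 and 1 to 8. The FACIT median for amosite moved to -0.26 without amosite replicate 1 (leave-one-out range -0.26 to 0.10). Leaving out single arrays also turned the sign of the network median (chrysotile -0.14 to 0.19, crocidolite -0.22 to 0.02, amosite -0.09 to 0.03) and of the FACIT median (chrysotile -0.10 to 0.12, crocidolite -0.04 to 0.15), and normexp that of the network median with crocidolite (0.12). Signs turned for Col19a1 with normexp (-0.26 with crocidolite, -0.01 with amosite) and for Col3a1 with crocidolite when centred on probes bright on all arrays (0.00). Leaving out single arrays also turned signs for Col1a1 (chrysotile -0.14 to 0.07, crocidolite -0.16 to 0.05), Col3a1 (chrysotile -0.25 to 0.03, crocidolite -0.15 to 0.13, amosite -0.26 to 0.02), Col4a1 (chrysotile -0.19 to 0.38, amosite -0.37 to 0.03), Col19a1 (crocidolite -0.24 to 0.35) and Col6a3 (amosite -0.32 to 0.04). Among all genes, 62, 43 and 58 were called for chrysotile, crocidolite and amosite without saline replicate 2. The same counts were 8, 4 and 2 without chrysotile replicate 1 and 1, 4 and 2 without chrysotile replicate 2, which also called 1 gene for chrysotile against each other fibre. Quantile normalization called 3, 2 and 2, and a trended robust prior 1 with chrysotile. None of these was a collagen chain. Where an array was left out, the remaining one was assumed to vary like the other groups. The causes were not tested. A block by slide or scan time was not run, since there was 1 of each. Signal over background limits Gp6, Cnn1, Ptprc, Col19a1, Col28a1, Col8a2 and Col22a1.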
